A study of Homo sapiens with 10 samples.

Results

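Keratin mRNA was compared between cisplatin-sensitive T24 and cisplatin-resistant T24R2 bladder cancer cells for 10 listed genes, KRT5, KRT7, KRT8, KRT10, KRT15, KRT17, KRT18, KRT19, KRT80 and KRT81. These were 10 of the 61533 genes in the count tables, listed by name with earlier results of these data known. Counts and tests over the 10 genes are therefore not independent of these data. Of the 10, 8 passed the filter on low counts, which kept 16181 genes in all, and KRT5 and KRT81 did not. T24 is an established human bladder cancer cell line. T24R2 was derived from T24 by serial exposure to cisplatin, a platinum drug that crosslinks DNA, so the comparison is of a single parental line with a single derived line. Both lines were collected on day 3 of culture as total RNA, with 5 RNA-seq libraries each. The labels list the same serum-supplemented RPMI for both lines, whereas the study kept T24R2 in medium with cisplatin, so an effect of the drug in the medium and one of the derived line cannot be told apart. The libraries of a line were not described as separate cultures, and the p-values below measure the spread between these libraries only, which may be technical.

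Keratins are the intermediate filament proteins of epithelial cells. A filament is built from heterodimers of an acidic type I keratin, encoded with KRT18 as an exception on chromosome 17, and a basic type II keratin, encoded on chromosome 12, and a keratin without a partner of the other type is unstable as a protein. KRT8 and KRT18 form the pair of simple epithelia, KRT7 and KRT19 are further simple-type keratins of ducts and urothelium, KRT5, KRT15 and KRT17 belong to basal or activated cells of layered epithelia, KRT10 is the type I keratin of differentiating epidermis, KRT80 is a broadly expressed type II keratin, and KRT81 is a hair keratin. The filaments are anchored at desmosomes between cells and at hemidesmosomes on the basement membrane.

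The libraries held between 9257843 and 10247941 assigned counts in T24 and between 9591379 and 10840954 in T24R2. Values per library are given as CPM, counts scaled to a common library size, here with the TMM factors of edgeR. A gene was called where the edgeR quasi-likelihood test gave a Benjamini-Hochberg adjusted p under 0.05 over all 16181 genes together with a log2 fold change of T24R2 over T24 beyond 0.5 in either direction. By that rule 4027 genes were higher in T24R2 (24.9%) and 4282 were lower (26.5%), so that 51.4% of all tested genes were called, and a call is common in this comparison. The median log2 fold change over all tested genes was 0.01, and without the TMM scaling it was 0.18.

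Of the 10 keratins, KRT7, KRT8, KRT18, KRT15, KRT17 and KRT19 were lower in T24R2 and KRT80 was higher. KRT10 did not pass the fold change minimum, and KRT5 and KRT81 were too low to be tested. The 6 lower calls stand beside a background of 26.5% of tested genes and the 1 higher call beside 24.9%. KRT17 and KRT19 passed the filter through T24 alone, where they were high, so their calls add no support and their test values are not given. The calls fell into separate sizes. The abundant KRT7, KRT8 and KRT18 stayed at 61.1% to 65.4% of their T24 level, KRT15 at 8.64%, and KRT17 and KRT19 were near 0.

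KRT7, the type II keratin of ducts and urothelium (chr12:52232520-52252186, plus strand), had the highest level of the 10 per kilobase of exon in both lines. Its values in T24 replicates 1 to 5 were 2247, 2349.5, 2218, 2206 and 2162 CPM. In T24R2 they were 1463, 1336, 1394, 1339 and 1297 CPM. The lowest T24 library lay far above the highest T24R2 library, and the means of 2236 ± 70.3 and 1366 ± 64.5 CPM (SD, n = 5 each) gave a log2 fold change of -0.71 (SE 0.04, adjusted p = 4.46e-19 by the edgeR quasi-likelihood test).

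KRT8, the type II partner in simple epithelia (chr12:52897187-52949954, minus strand), gave 1506, 1713, 1525, 1377 and 1562 CPM in T24 and 1014, 1003, 989.8, 998 and 1025 CPM in T24R2. The groups did not overlap, and the T24R2 libraries lay closer together, with an SD of 13.9 CPM around a mean of 1006, than the T24 libraries, with an SD of 121 around 1537. The log2 fold change was -0.61 (SE 0.04, adjusted p = 8.6e-16 by edgeR). It was -0.45 and no longer past the fold change minimum when the libraries were scaled by total counts alone.

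KRT18, the type I partner of KRT8 (chr12:52948871-52952906, plus strand), gave 1124, 1220.2, 1121, 975 and 1105 CPM in T24 and 699, 640.2, 705, 718 and 681 CPM in T24R2. The groups did not overlap, with means of 1109 ± 87.6 and 689 ± 30.3 CPM (SD, n = 5 each). The log2 fold change was -0.69 (SE 0.05, adjusted p = 1.34e-16 by edgeR). KRT18 is the type I gene that lies at the end of the chromosome 12 cluster beside KRT8, and the annotated exons of both genes share 525 bases on opposite strands.

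KRT19, a type I keratin without the tail domain of other keratins (chr17:41523617-41528308, minus strand), had 2676, 2549, 2348, 2409 and 2423 counts in the T24 libraries. The T24R2 libraries held 2, 3, 0, 0 and 0 counts. No T24 library was under 2348 counts and no T24R2 library exceeded 3. Summed over libraries, 12405 counts stood against 5, which puts T24R2 at 0.0345% of the T24 rate with an exact 95% interval of 0.0112% to 0.0805% that covers counting error only. The T24 rate was 2899 times that of T24R2, with a counting interval of 1242 to 8929.

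KRT17, a type I keratin of basal and wound-activated epithelium (chr17:41619442-41624842, minus strand), had 433, 409, 427, 484 and 359 counts in T24. The T24R2 libraries held 3, 0, 3, 0 and 0. The groups were again far apart, with 2112 counts against 6 in sum. T24R2 was at 0.243% of the T24 rate (exact 95% counting interval 0.0891% to 0.53%).

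KRT15, a type I keratin of basal cells (chr17:41513745-41522529, minus strand), gave 22.4, 24.6, 24.05, 25.2 and 24.5 CPM in T24 and 1.83, 1.47, 2.68, 2.58 and 1.86 CPM in T24R2. No library of T24R2 came near the T24 range, and unlike KRT17 and KRT19 each one held reads of the gene. The log2 fold change was -3.53 (SE 0.14, adjusted p = 9.89e-24 by edgeR), an 11.5-fold lower level. KRT15 and KRT19 are neighbours, with 1087 bases between their annotated ends.

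KRT80, a type II keratin at the outer end of the chromosome 12 cluster (chr12:52168996-52192014, minus strand), was the listed keratin that rose. It gave 45.1, 44.1, 35.7, 45.5 and 44.7 CPM in T24 and 163, 155, 153, 143 and 161 CPM in T24R2. The lowest T24R2 library was more than the highest T24 library by a wide margin, and T24 replicate 3 stood below the other libraries of its line. The level was 3.60-fold higher in T24R2, a log2 fold change of 1.85 (SE 0.06, adjusted p = 2.5e-27 by edgeR).

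KRT10, the type I keratin of differentiating epidermis (chr17:40818117-40822614, minus strand), gave 23.6, 32.5, 28.0, 27.5 and 27.0 CPM in T24 and 30.4, 22.2, 17.3, 22.0 and 22.7 CPM in T24R2. The groups overlapped, since T24R2 replicate 1 lay within the T24 range and above 4 of the 5 T24 libraries. The log2 fold change was -0.27 (SE 0.10), with an adjusted p of 0.0177 by edgeR but a size under the minimum of 0.5. Leaving out 1 library at a time moved it between -0.39 and -0.18.

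The hair keratin KRT81 (chr12:52285913-52291534, minus strand) had 4, 7, 7, 7 and 14 counts in T24 and 2, 0, 1, 1 and 2 counts in T24R2. The lines did not overlap, at 39 counts against 6 in sum, a ratio of 7.59 with an exact 95% counting interval of 3.19 to 21.9, but the gene was under the filter and has no test here. KRT5, the basal type II keratin that usually pairs with a basal type I keratin (chr12:52514575-52520530, minus strand), had no count in 9 of the 10 libraries and 6 counts in T24R2 replicate 3. No fold was formed for it.

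**Figure D1:**
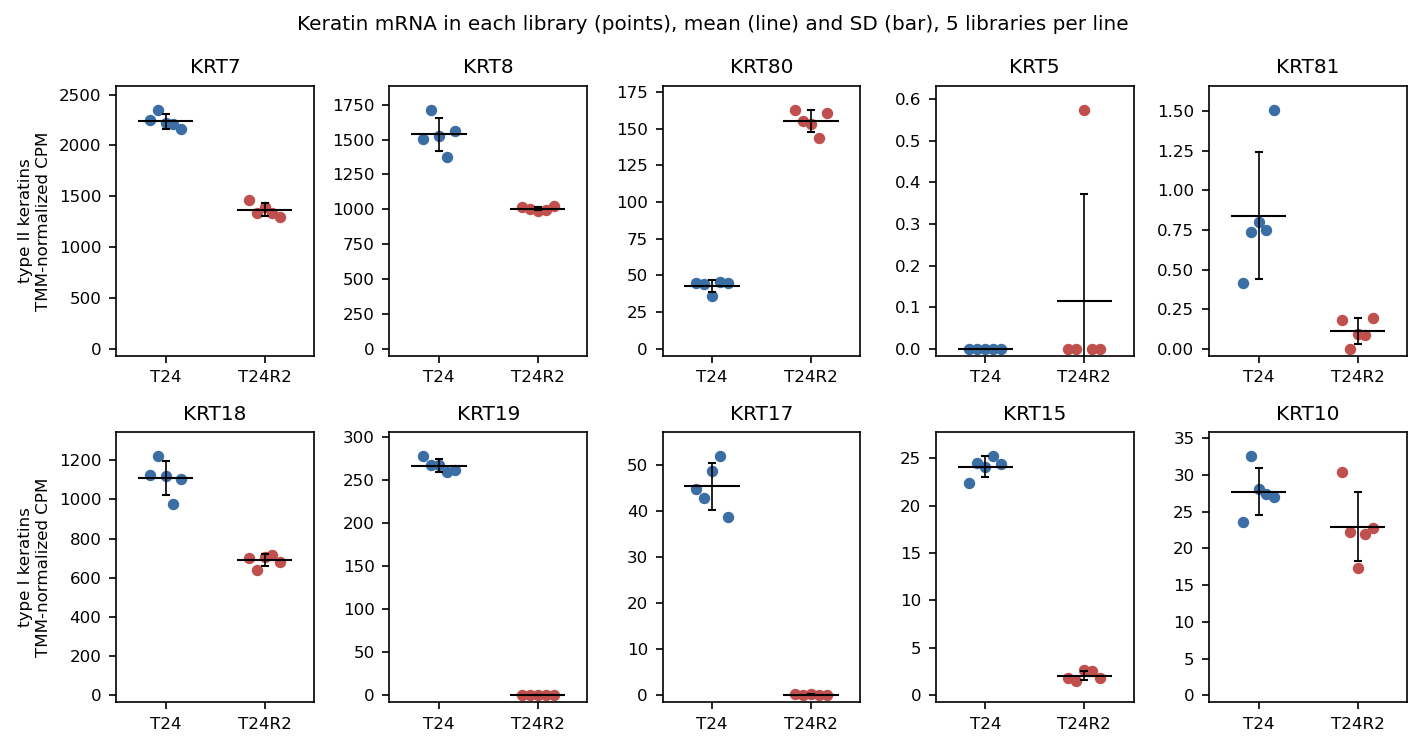
TMM-normalized CPM of each listed keratin (vertical axis, own scale per gene) in the 5 T24 libraries (blue) and the 5 T24R2 libraries (red), with type II keratins in the upper row and type I keratins in the lower row, the mean as a line and the SD as a bar. KRT7, KRT8, KRT18, KRT19, KRT17 and KRT15 are separated with T24 above, KRT80 with T24R2 above, and KRT10 overlaps. The scales of KRT5 and KRT81 end under 2 CPM.

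To set the genes beside each other, levels were divided by the exon length of the count tables and given as CPM per kb. In T24 the order was KRT7 with 559 ± 17.6 CPM per kb, KRT18 with 361 ± 28.5, KRT8 with 223 ± 17.5, KRT19 with 114 ± 3.09, KRT17 with 15.2 ± 1.71, KRT10 with 12.8 ± 1.48, KRT80 with 9.86 ± 0.948, KRT15 with 4.04 ± 0.179 and KRT81 with 0.436 ± 0.209 (SD, n = 5), and KRT5 was at 0. KRT17 and KRT10 overlapped and no other neighbours in that order did. In T24R2 the same genes came first, with KRT7 at 342 ± 16.1, KRT18 at 224 ± 9.86 and KRT8 at 146 ± 2.03 CPM per kb, and KRT80 was next at 35.5 ± 1.74. KRT10 followed at 10.6 ± 2.17 and KRT15 at 0.349 ± 0.0874 CPM per kb, while KRT81, KRT19, KRT17 and KRT5 came last and overlapped.

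The order of KRT8 and KRT18 depended on the length used. The exon length of KRT8 in the count tables is 6881 bases because it joins the exons of many transcripts, whereas its canonical transcript in GENCODE release 44 has 1784 bases. For KRT18 these lengths are 3069 and 1413 bases. With canonical lengths the T24 means were 861 CPM per kb for KRT8 and 785 for KRT18, with KRT7 at 1376 and KRT19 at 192. The comparison of a gene between the lines does not use its length.

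The summed level of the 10 keratins fell from 1300.3 ± 60.4 CPM per kb in T24 to 759 ± 22.8 CPM per kb in the resistant line (SD over 5 libraries). The libraries did not overlap, with 1225 to 1393 in T24 and 734.5 to 793 in T24R2, a difference of -0.78 on the log2 scale (exact two-sided permutation p = 0.00794, the smallest that 5 against 5 libraries can give, and 0.0119 after adjustment over 3 values). Without division by exon length, the 10 genes took 0.472% to 0.533% of all counts in T24 and 0.337% to 0.356% in T24R2. The listed keratins therefore stood at a lower total, of which KRT7 was 43.0 ± 1.16% of the CPM per kb in T24 and 45.0 ± 1.02% in T24R2. KRT19 made up 8.78 ± 0.341% of the T24 sum, and KRT80 went from 0.76 ± 0.0851% to 4.69 ± 0.239%.

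Since filaments need both types, the sum of the type II members (KRT5, KRT7, KRT8, KRT80 and KRT81) was set over that of the type I members (KRT10, KRT15, KRT17, KRT18 and KRT19) in each library. The ratio was 1.56 ± 0.0481 in T24, from 1.53 to 1.65, and 2.23 ± 0.0944 in T24R2, from 2.10 to 2.35, all in CPM per kb. The summed balance was shifted towards type II mRNA in all T24R2 libraries, by 0.51 on the log2 scale (exact two-sided permutation p = 0.00794, adjusted 0.0119). The members did not move alike. Of type I, KRT19 went from 114 to 0.0379 CPM per kb, while KRT18 stayed at 62.1% of its T24 level. Of type II, KRT80 went from 9.86 to 35.5 CPM per kb, while KRT7 and KRT8 stayed at 61.1% and 65.4%. The ratio without KRT19 and KRT80 was not tested. The permutation p therefore holds for the 10 genes summed, KRT19 and KRT80 included, and not for the balance of the other members. The ratio of the simple-epithelial pair itself, KRT8 over KRT18, was 0.618 ± 0.0151 in T24 and 0.652 ± 0.0327 in T24R2. That difference of 0.077 on the log2 scale was within the spread of the libraries (exact two-sided permutation p = 0.0794), although without T24R2 replicate 4 it was 0.095 with an exact permutation p of 0.0317.

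**Figure D2:**
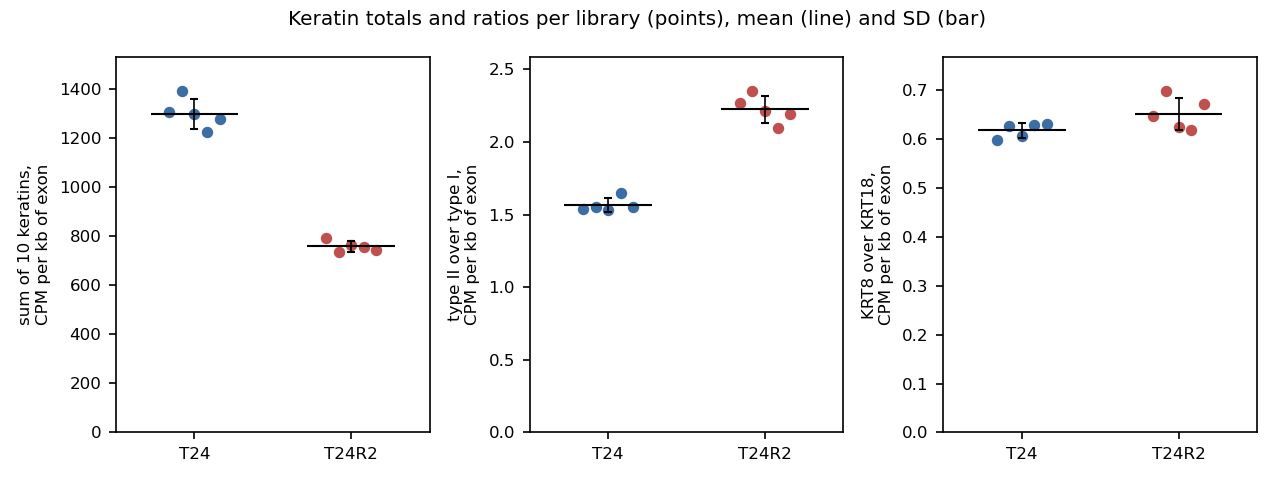
Summed level of the 10 keratins, ratio of type II to type I keratins and ratio of KRT8 to KRT18 (vertical axes from 0, from CPM per kb of exon) in each library, with the mean as a line and the SD as a bar. The sums of T24R2 (734.5 to 793) lie below those of T24 (1225 to 1393), the type II to type I ratios lie above, and the KRT8 to KRT18 ratios of both lines overlap.

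Some keratins overlap other genes on the opposite strand or resemble other genes. The counting used a strand setting while the library kit is not described as strand-specific, so reads of a keratin and of such a gene cannot be told apart with certainty where their exons overlap, and the strandedness of the libraries was not tested. KRT7-AS, a long noncoding RNA with 282 exon bases in common with KRT7, had 33.8 counts per 100 of KRT7 in T24 and 35.6 in T24R2. It was lower too, at 757 ± 30.4 against 486 ± 22.1 CPM (log2 fold change -0.64, SE 0.04, adjusted p = 7.98e-17 by edgeR). KRT87P, a pseudogene with 32 exon bases in common with KRT7, had 3.17 ± 1.23 and 3.53 ± 0.903 CPM and no call.

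KRT10-AS1, which shares 56 exon bases with KRT10 (1.83% of its own), was higher in T24R2, while KRT10 was not called. It gave 8.07, 7.35, 5.70, 6.86 and 7.11 CPM in T24 and 12.1, 13.3, 12.5, 14.3 and 12.7 CPM in T24R2, without overlap. The log2 fold change was 0.89 (SE 0.13, adjusted p = 8.27e-08 by edgeR). With the counts of KRT10-AS1 subtracted from those of KRT10, the difference of KRT10 between the lines was -1.06 in place of -0.27. This takes off all counts of KRT10-AS1, although the shared bases are a small part of it, so it is an extreme case, and the difference between the genes was not tested. The same subtraction of all KRT18 counts from KRT8 left KRT8 at -0.43, and KRT8 could not be subtracted from KRT18, which has fewer counts. An unnamed gene listed as ENSG00000289252 (chr17:41621696-41622002, plus strand) lies with all 307 of its bases in exons of KRT17, and it had 86 to 117 counts in the T24 libraries and 0 in every T24R2 library, at least 40.2-fold lower with a floor of 3 counts per library.

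Near-identical copies touched KRT81 and KRT8. Of the words of 100 bases in the canonical transcript of KRT81, 30.3% also stand in a transcript of another keratin gene, and 29.4% stand in the neighbouring hair keratin KRT86, so the KRT81 counts are uncertain. KRT86 itself had 1.20 ± 0.635 CPM in T24 and 0.955 ± 0.604 in T24R2 (log2 fold change -0.33, SE 0.41, adjusted p = 0.476 by edgeR). For KRT8 the share was 7.12%, for KRT5 1.64% and for KRT17 0.353%, and KRT7, KRT10, KRT15, KRT18, KRT19 and KRT80 had no such word in common with another keratin or keratin pseudogene. The authors kept only uniquely mapped reads, and a read that fits more than 1 gene was left out.

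KRT8 and KRT18 have many processed pseudogenes, which are copies of their mRNAs elsewhere in the genome. Of 51 annotated KRT8 pseudogenes 29 had a count, and their sum was 1.06% of the KRT8 counts in T24 and 1.38% in T24R2. For KRT18, 36 of 67 had a count and their sum was 0.443% and 0.481%. The pseudogenes of KRT17 (8) and KRT19 (5) held at most 4 and 2 counts in a library. KRT8P12 gave 3.24 ± 0.917 and 3.76 ± 0.637 CPM and KRT8P3 gave 8.34 ± 1.77 and 5.97 ± 0.441 CPM, with neither called (log2 fold changes 0.21 and -0.48).

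The remaining 45 keratin genes of the family were nearly silent. Of these, 29 had no count in any library and 37 never exceeded 3 counts, and KRT86 was the one past the filter. Their summed level was 3.83 to 5.39 CPM in T24 and 2.65 to 3.89 CPM in T24R2. KRT20, the keratin of the urothelial umbrella cells, had no count in any library. KRT13, of non-cornified layered epithelium, had 2 to 10 counts in T24 and 0 to 1 in T24R2, and KRT16, often produced together with KRT17, had 2 to 9 and 0 to 1. KRT222, a keratin-like gene at the start of the chromosome 17 cluster, had 0 to 2 counts in T24 and 2 to 8 in T24R2. KRT27 had 0 to 7 and 0 to 3 counts, and KRT37 had 5 counts in 1 T24 library and 0 elsewhere. All are too low for a test.

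The keratin genes sit in gene clusters, so the members were also placed beside their neighbours. The chromosome 12 cluster (chr12:52168996-52952906) holds 27 keratin genes, among them 6 of the listed ones, and 7 genes inside it were tested, of which 1 was higher (KRT80), 4 were lower (KRT7, KRT7-AS, KRT8 and KRT18) and 2 were not called. Within 500 kb on either side 25 genes were tested, with 4 higher, 7 lower and 14 not called, beside 24.9% higher and 26.5% lower over all genes, and a median log2 fold change of -0.23, beside 0.01 over all genes. The nearest tested genes outside were ENSG00000257663 on the KRT80 side (log2 fold change -0.41) and EIF4B, a translation initiation factor, on the KRT18 side (-0.21), and neither was called.

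The chromosome 17 cluster (chr17:40654665-41624842) holds 28 keratin genes, among them 4 listed ones. Of 7 tested genes inside it, KRT10-AS1 was higher, KRT15, KRT19, KRT17 and ENSG00000289252 were lower, and KRT10 and ENSG00000264058 were not called. KRT19, KRT17 and ENSG00000289252 passed the filter through T24 alone, so their calls add no support. ENSG00000289252 also lies within exons of KRT17, so their counts may not be independent. The flanks of 500 kb had 32 tested genes, with 2 higher, 9 lower and 21 not called, beside the same shares over all genes, and a median of -0.21. Among these IGFBP4, a binding protein of insulin-like growth factors, fell from 1626 to 52.5 CPM in the mean (log2 fold change -4.95). The nearest on either side were ENSG00000278834 (log2 fold change 0.19) and EIF1, another initiation factor (-0.19), both without a call. Inside the cluster, KRT15, KRT19 and KRT17 lie between KRT10, which overlapped between the lines, and EIF1, while the larger fall of IGFBP4 than that of KRT15 was outside it.

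**Figure D3:**
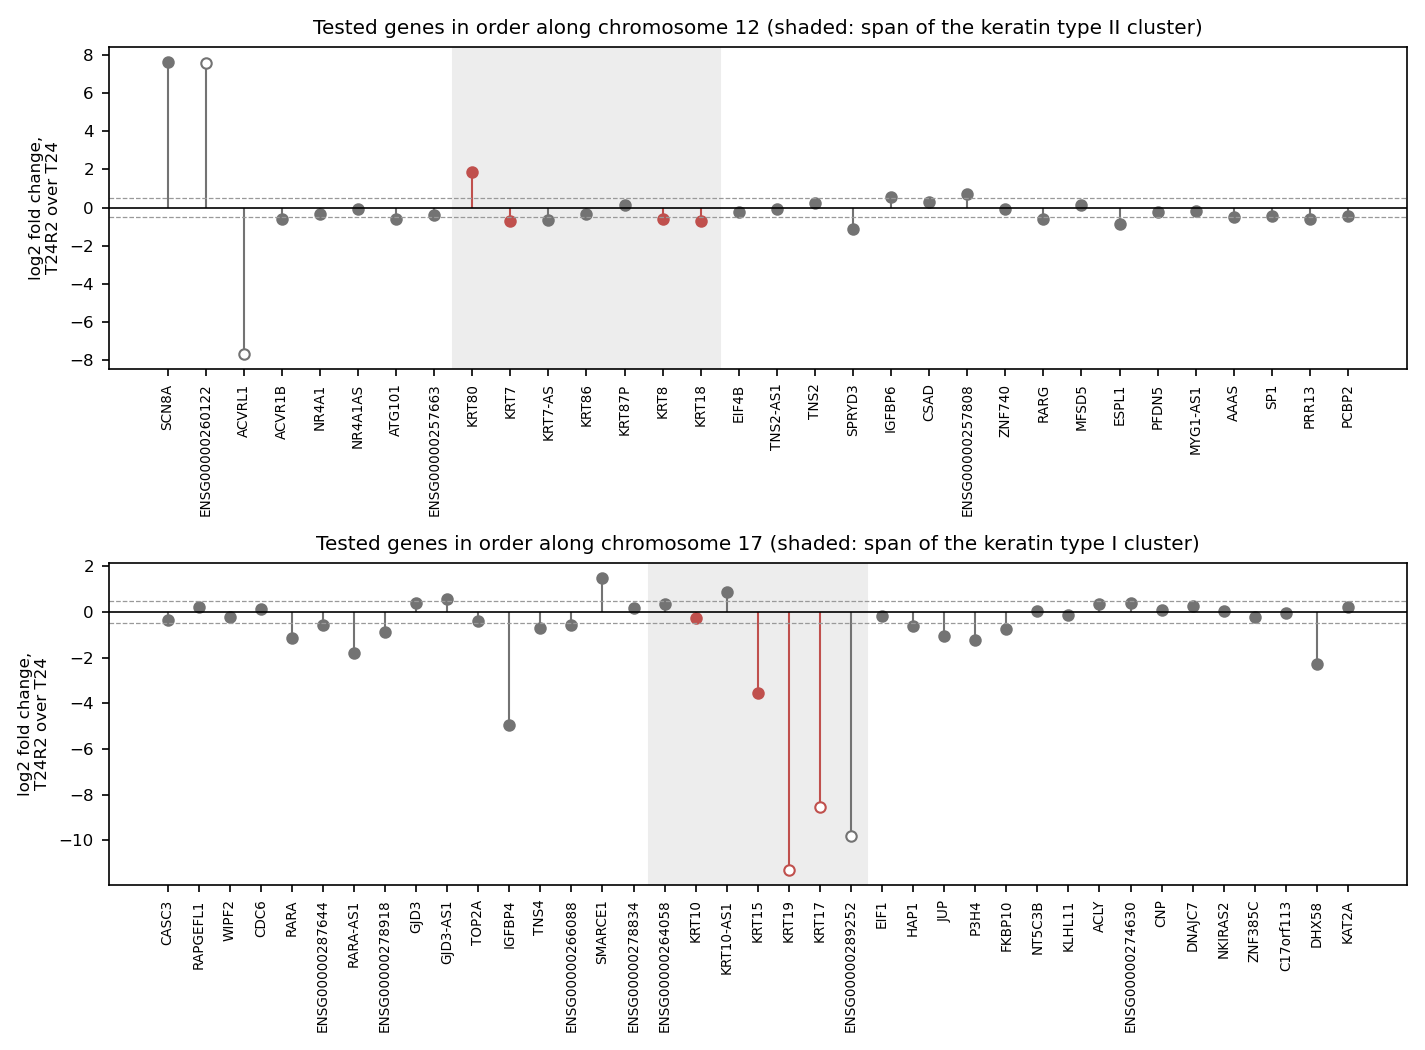
Log2 fold change of T24R2 over T24 (vertical axis) for every tested gene of the keratin clusters and of the 500 kb on either side, in gene order (horizontal axis, not to scale), with listed keratins in red and the cluster shaded. Dashed lines mark the minimum of 0.5 either way, and open points mark genes that had at most 3 counts in every library of 1 line, whose fitted size depends on the prior count of the fit. KRT15, KRT19 and KRT17 form a run of low values with ENSG00000289252 at the end of the chromosome 17 cluster, and KRT80 is the listed keratin above 0.

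RefSeq promoter windows on GRCh38.p14 were at hand for 3 of the 10 genes, KRT5, KRT8 and KRT10, and the other 7 had no entry in that table. The KRT5 window runs into an annotated KRT5 exon and is not shown. The 250 bases before the start are printed for KRT8, which fell, and for KRT10, which was not called, as a keratin of simple epithelia beside an epidermal one. Both strands were searched for 4 short motifs, and capitals mark the matches. The TATA box was searched as TATAAA. The GC box, bound by SP1, was searched as GGGCGG. The third was the CCAAT box, by those letters. The AP-1 element was searched as TGANTCA, with N for any base, and no motif overlapped another.
KRT8 (chr12:52926470-52926719, minus strand): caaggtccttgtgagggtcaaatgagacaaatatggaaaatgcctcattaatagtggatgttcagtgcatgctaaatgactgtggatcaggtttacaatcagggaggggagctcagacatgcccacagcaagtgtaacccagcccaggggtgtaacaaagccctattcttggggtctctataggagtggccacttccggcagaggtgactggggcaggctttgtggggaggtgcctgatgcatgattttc
KRT10 (chr17:40822615-40822864, minus strand): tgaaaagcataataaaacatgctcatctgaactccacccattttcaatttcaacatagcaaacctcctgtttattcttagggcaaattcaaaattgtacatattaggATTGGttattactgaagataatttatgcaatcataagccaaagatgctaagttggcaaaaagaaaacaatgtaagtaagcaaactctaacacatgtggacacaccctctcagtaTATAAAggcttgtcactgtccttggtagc
The KRT10 window holds a TATA box 29 to 24 bases before the start and, on the opposite strand, a CCAAT box at 143 to 139 bases. None of the 4 motifs stands in the KRT8 window, which belongs to an upstream first exon 21.4 kb from the start of the canonical KRT8 transcript. Among all 35116 windows of this length in the table, a TATA box stands in 10.7%, a GC box in 42.6%, a CCAAT box in 32.0% and an AP-1 element in 6.57%. The GC content was 50.4% for KRT8 and 34.8% for KRT10, with a median of 58% over all windows.

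Genes of the structures that anchor keratin filaments were described from named lists. Of 14 desmosome genes 9 were tested, and 5 were lower, none higher and 4 not called, beside 26.5% of all tested genes lower and 24.9% higher, with a median log2 fold change of -0.61 beside 0.01 over all genes. DSG3 had 5 counts in 1 T24 library and 0 elsewhere. The largest fall among those above 10 CPM was that of the desmosomal cadherin DSC3, from 20.4 ± 2.11 to 3.60 ± 0.831 CPM (log2 fold change -2.51, SE 0.14). JUP, plakoglobin, which links the cadherins to the filament anchor, fell from 229 ± 12.4 to 110.0 ± 5.43 CPM (-1.06), the cadherin DSG2 from 209.8 ± 2.48 to 117 ± 6.32 CPM (-0.84) and the plaque protein PKP2 from 38.6 ± 4.19 to 25.3 ± 2.05 CPM (-0.61). The keratin-binding plaque protein desmoplakin, DSP, was not called, at a log2 fold change of 0.16 (SE 0.07, adjusted p = 0.0301 by edgeR).

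All 6 hemidesmosome genes were tested, and 4 were lower and 2 not called, beside 26.5% lower over all genes, with a median log2 fold change of -1.93. ITGB4, the integrin chain that binds plectin on the keratin side, gave 71.5, 58.0, 60.2, 83.6 and 54.2 CPM in T24 and 0.732, 0.346, 0.383, 0.355 and 0.882 CPM in T24R2. The groups lay far apart, with 503 to 779 counts in the T24 libraries and 4 to 9 in the T24R2 libraries. ITGB4 passed the filter through T24 alone, so its call adds no support and its test values are not given. Its partner chain ITGA6 fell from 700.2 ± 43.6 to 166 ± 12.6 CPM (-2.07), the tetraspanin CD151 from 575 ± 12.8 to 145 ± 9.99 CPM (-1.98) and the transmembrane collagen COL17A1 from 13.7 ± 1.51 to 3.69 ± 0.593 CPM (-1.88). The plakins PLEC and DST, which connect keratins to these integrins, were not called, at log2 fold changes of -0.21 and 0.40.

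Of 16 cornified envelope genes only EVPL and PPL, plakins that bind keratin filaments, were tested, and both were lower, beside 26.5% over all genes. PPL gave 121, 112, 125, 118 and 116 CPM in T24 and 3.02, 3.54, 2.87, 3.38 and 3.53 CPM in T24R2, without overlap (log2 fold change -5.17, SE 0.08, adjusted p = 2.06e-37 by edgeR). EVPL fell from 39.6 ± 4.83 to 19.2 ± 1.87 CPM (-1.05). Of the other 14 genes, 9 had no count in any library.

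Of 12 genes listed as keratin-binding 11 were tested, with 2 higher, 2 lower and 7 not called, no more than the 24.9% and 26.5% over all genes. The median was -0.0043, beside 0.01. The list also held KRTCAP2 and KRTCAP3, which are named for keratinocytes and not for keratin binding. KRTCAP3 was among the higher genes (log2 fold change 0.69), and KRTCAP2 was itself the median. TRADD, a death receptor adaptor that can bind KRT18, fell from 33.4 ± 3.22 to 15.5 ± 1.83 CPM (log2 fold change -1.11), and the ubiquitin ligase STUB1 from 153 ± 2.41 to 92.3 ± 3.62 CPM (-0.73). TCHP, trichoplein, a keratin-binding protein, rose from 56.9 ± 4.01 to 85.3 ± 5.99 CPM (0.58).

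Of 16 other intermediate filament genes 9 were tested, with 4 higher, 1 lower and 4 not called, beside 24.9% higher and 26.5% lower over all genes. The share called either way was close to the 51.4% over all genes, and the median was -0.05. The lower gene, NES, had 25 to 39 counts in T24 and 0 to 5 in T24R2, and it passed the filter through T24 alone. Of the higher genes, GFAP had 7 to 21 counts in T24 and 16 to 37 in T24R2, and it passed through T24R2 alone. The calls of NES and GFAP add no support. BFSP1, also higher, had 6 to 12 counts in T24 and 8 to 35 in T24R2, and its lines overlapped, as did those of GFAP. VIM, vimentin, the filament of mesenchymal cells, gave 489, 496, 486, 459 and 473 CPM in T24 and 3875, 3782, 4294, 3897 and 3906 CPM in T24R2. All T24R2 libraries were above all T24 libraries (log2 fold change 3.04, SE 0.04, adjusted p = 2.38e-39 by edgeR), an 8.22-fold higher level. The summed level of the list, which VIM dominated in T24R2, was 1793 to 2026 CPM in T24 and 4971 to 5415 CPM in T24R2. The nuclear lamins LMNA, LMNB1 and LMNB2 were not called, at log2 fold changes of -0.45, -0.28 and -0.06. Of the neuronal filament genes, PRPH had 1 to 6 counts in T24 and 0 in T24R2, and NEFH had 0 to 2 and 0 to 5.

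**Figure D4:**
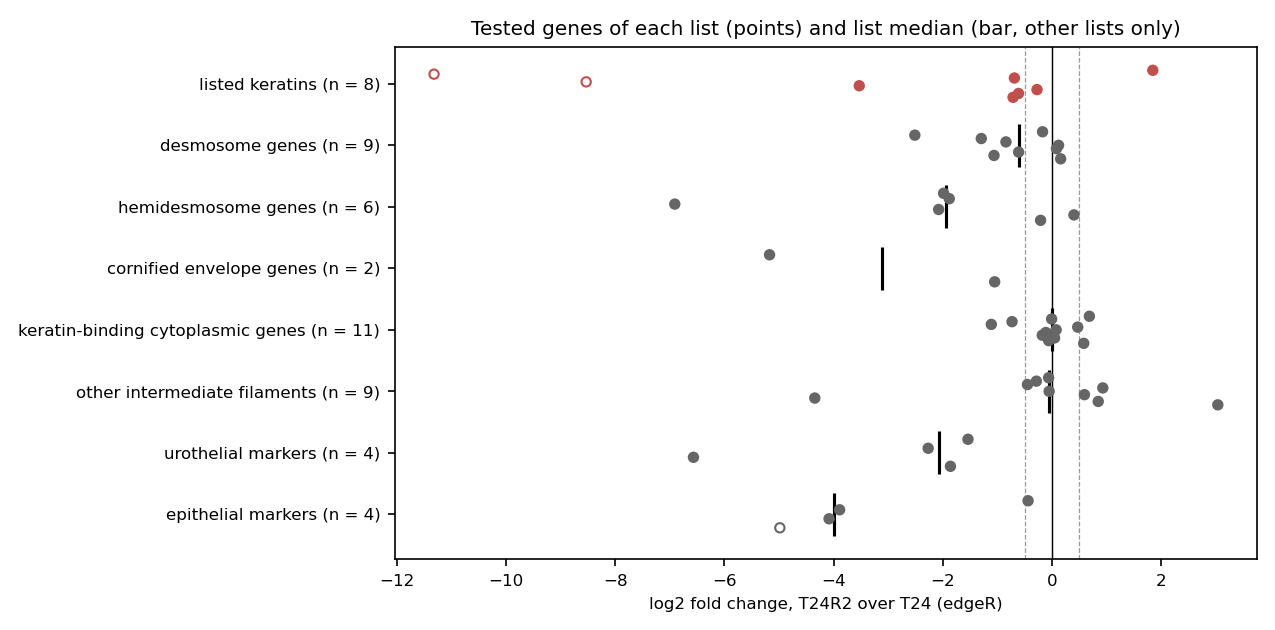
Log2 fold change of T24R2 over T24 (horizontal axis) for the tested genes of each list (points), with listed keratins in red, the median of each other list as a bar, the minimum of 0.5 either way as dashed lines and open points for genes with at most 3 counts in every T24R2 library. Hemidesmosome genes center on -1.93 and desmosome genes on -0.61, keratin-binding cytoplasmic genes lie around 0, and VIM is the point near 3.

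Marker genes of the labelled cell type were read beside the keratins. Of 10 urothelial markers 4 were tested and all 4 were lower, beside 26.5% over all genes. GATA3, a transcription factor of urothelium, gave 24.9, 23.1, 19.9, 21.3 and 20.8 CPM in T24. In T24R2 it gave 0.0915, 0.432, 0, 0.444 and 0.0980 CPM, from 0 to 5 counts per library. GATA3 passed the filter through T24 alone, so its call adds no support and its test values are not given. FOXA1 fell from 66.5 ± 2.73 to 13.8 ± 1.44 CPM and PPARG from 75.7 ± 2.44 to 26.1 ± 3.82 CPM, both also transcription factors of this epithelium. The uroplakin UPK2 was lower as well, while UPK1A, UPK1B, UPK3A, UPK3B, KRT20 and TP63 were at or near 0 in both lines. Summed, the urothelial list was at 173 to 182 CPM in T24 and 40.3 to 47.1 CPM in T24R2.

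Among 10 epithelial markers 4 were tested, with 3 lower and 1 not called, beside 26.5% lower over all genes, and the defining cadherin CDH1 was near 0 in both lines. EPCAM and CLDN4 passed the filter through T24 alone, as did the lower gene that is not named, so these calls add no support. The tight junction gene CLDN4 was at 17.6 ± 1.89 CPM in T24 and 1.19 ± 0.532 CPM in T24R2, with 6 to 21 counts in the T24R2 libraries. EPCAM, an epithelial adhesion gene, had 208 counts against 7 in sum, which is 34.7-fold lower with an exact 95% counting interval of 16.6 to 87.4. CLDN7 had 4 to 9 counts in T24 and 0 to 2 in T24R2, and the splicing factor ESRP1 had 0 to 1 and 0 to 4. Of the markers of other cells, 2 of 8 fibroblast genes and 2 of 5 endothelial genes were tested. All 4 were lower, beside 26.5% over all genes, and none of 6 leukocyte genes was tested. PDGFRB, the other tested fibroblast gene and CDH5 passed the filter through T24 alone, so their calls add no support. Of the fibroblast genes, PDGFRB had 23 to 38 counts in T24 and 0 in T24R2, whereas PDGFRA had 0 in T24 and 1 to 7 in T24R2. Of the leukocyte genes, PTPRC had 0 to 1 counts in T24 and 2 to 10 in T24R2, and CD14 had 4 to 16 and 0 to 2. The fibroblast sum was 9.05 to 11.2 CPM in T24 and 0.951 to 2.29 CPM in T24R2, and the leukocyte sum was 1.29 to 2.15 and 0.588 to 3.45 CPM. The endothelial sum, 225 to 277 against 1.60 to 2.49 CPM, was almost all CDH5 (238 ± 22.2 and 0.558 ± 0.309 CPM). In bulk libraries fewer cells with a transcript and less of it per cell cannot be told apart, and the part of any of these markers in the keratin values was not tested.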

How the data were processed

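Total RNA of 5 T24 and 5 T24R2 libraries had been prepared by the authors with a NEBNext Ultra II RNA kit. According to the study's methods and per the file headers, the authors used STAR 2.7.0 to map reads on hg38 (GENCODE 39), then removed duplicates and reads with several positions (samtools 1.10) and made the deposited counts per gene with featureCounts 2.0.1 at strand option 1. Removing duplicates can lower the counts of abundant genes such as KRT7, KRT8 and KRT18 more than those of others.

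The deposited counts were tested here with edgeR 4.0.16 in R 4.3.3 (filterByExpr, TMM, quasi-likelihood test, 2 groups, no covariate), with Benjamini-Hochberg adjustment over the 16181 genes past the filter, and calls needed an adjusted p below 0.05 and a log2 fold change beyond 0.5 either way. The study's own tool, DESeq2, with and without shrinkage, was an alternative here (version 1.42.0), as were limma-voom (limma 3.58.1), other scalings, no filter, other fold change minimums, a replicate block and leaving out each library. Sums and ratios were compared by exact two-sided permutation tests. The scripts were tested on simulated data. Intervals and the floor of 3 counts per library cover counting error only. Replicate numbers are those of the titles, and all 20 pairs of libraries within a line differed by more than sampling noise, with a chi-square of 2.01 to 7.04 per degree of freedom. Symbols were matched to Ensembl identifiers for 61369 of 61533 genes, and every row had a gene name.

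Named were all listed keratins, other keratins past the filter, pseudogenes with a mean of at least 10 counts, genes sharing exon bases on the opposite strand, the nearest tested genes beside the clusters, and of each list up to 4 called genes with the largest change above 10 CPM and those at or under 3 counts in every library of 1 line only. DSP, PLEC, DST, IGFBP4, the lamins, NES, GFAP, BFSP1, KRTCAP2, KRTCAP3, UPK2 and markers near 0 were named after their values were seen. The value of 1 epithelial marker is not reported here. The members and lists were chosen with earlier results of these data known. Canonical transcript lengths and sequence words come from GENCODE 44, promoter windows from RefSeq on GRCh38.p14.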

Additional observations from a re-analysis of the deposited data

Results flagged for a closer look

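Among 20 sets of 5 library values, for the keratins with a mean of at least 10 counts in a line and the sums and ratios, 2 had a library that stood apart from the other 4 of its line by Dixon's criterion, which flags about 1 in 20 by chance, so that 1 would be given by chance. KRT80 in T24 replicate 3 was 35.67 CPM, below the 44.1 to 45.5 CPM of the other T24 libraries, and its fold change without 1 library ranged from 1.79 to 1.88 on the log2 scale. The ratio of type II to type I keratins in T24 replicate 4 was 0.721 on the log2 scale, above the 0.614 to 0.635 of the other T24 libraries and below the lowest T24R2 value of 1.07, and the difference between the lines without 1 library ranged from 0.49 to 0.53.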

How the results depend on the processing

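The limits of these data are a pair of cell lines, libraries that may be technical repeats, counts in which opposite strands may not be told apart, and very low counts for KRT5 and KRT81. With a fold change minimum of 1, 1918 genes were higher, 2293 were lower and 3 keratins were lower (KRT15, KRT17 and KRT19), and with no minimum 6128 genes were higher and 7 keratins were lower, KRT10 included. Without scaling beyond library size 5206 genes were higher and 3431 lower, in place of 4027 and 4282, and 5 keratins were lower since KRT8 was at -0.45. With no count filter 7 keratins were lower, KRT81 included. The other settings and the removal of each library gave 1 higher and 6 lower keratins. Of 139 keratin fold changes, 136 kept their side of the threshold within the spread, 1 fell under it and 2 moved, KRT8 and KRT10 with opposite-strand counts taken off. The difference in the KRT8 to KRT18 ratio ranged from 0.052 to 0.095 when 1 library was left out, and without T24R2 replicate 4 it passed the threshold. The type II to type I ratio and the summed level kept their direction and their side of the threshold under every alternative run, at 0.41 and -0.75 with canonical lengths, a setting chosen after seeing the data. With a replicate block 3979 genes were higher and 4261 lower, and 1 keratin was higher and 6 were lower. Same-numbered libraries shared only a number, with correlations of their deviations between -0.021 and 0.016, and 1 of the 5 numbers correlated best with its own.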
